A study of Mus musculus with 4 samples.

Results

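The cells described here are the 60 early lesion cells, from MMTV-neu mouse mammary tissue, that gave the largest share of their RNA to the genes Hp, Spp1, Lrg1, Chil1 and Ltf. They are 60 of the 1085 cells of that library (5.53%) and of the 1905 cells of the 4 libraries of the series. They were chosen by measured values: cells were ranked by the percent of their UMIs (unique molecular identifiers, which count RNA molecules rather than reads) in the 5 genes, and the top 60 were kept. The levels of those 5 genes in the selected cells are therefore a description. The ranking put Spp1 first in all 60 cells, while Hp was detected in 17 of them, so the cells are called Spp1-high cells below and the name "Hp and Spp1-high" does not hold for most of them.

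In MMTV-neu mice the mouse mammary tumor virus promoter drives neu, a form of Erbb2 (HER2), in mammary epithelial cells. The early lesion library came from mammary glands of FvB mice aged 14 to 18 weeks without a palpable tumor, and the other libraries came from early lungs at the same age and from a primary tumor and late lungs at over 20 weeks. Per the labels, CD45- HER2+ cells were sorted from digested tissue in each case, so all groups share the transgene, the strain and the gate. Each group was 1 library, and the labels do not say whether it held 1 mouse or several. No difference between groups of cells below therefore has a replicate check, and the 95% intervals given are exact and cover counting error only.

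Spp1 encodes osteopontin, a secreted phosphoprotein of bone, milk and inflamed tissue that binds integrins and CD44. Hp encodes haptoglobin, which binds free hemoglobin, Lrg1 a secreted leucine-rich glycoprotein of the acute phase response, Chil1 a secreted chitinase-like protein known in humans as YKL-40, and Ltf lactoferrin, an iron-binding defence protein of milk and neutrophil granules. Mammary alveolar cells secrete caseins, alpha-lactalbumin and whey proteins during lactation, and during involution, the regression of the gland after lactation, the epithelium expresses acute phase and lysosomal genes.

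The 5 genes lie on 5 chromosomes, so none share a neighborhood (mm10, GENCODE M21). Spp1 lies at chr5:104435118-104441050 on the plus strand, Hp at chr8:109575128-109579172 on the minus strand and Lrg1 at chr17:56119678-56122001 on the minus strand. Chil1 lies at chr1:134182176-134190181 and Ltf at chr9:111019271-111042767, both on the plus strand. The 250 bases before the transcription start, read 5′ to 3′ on the gene's strand from the RefSeq table of build GRCm38.p6, are shown for Spp1, Chil1 and Lrg1 and for Lcn2, a gene that was high in the same cells. Csn2, the beta-casein gene, is shown beside them because it was low in the cells that carried Hp and Chil1. Capitals mark matches to TTCNNNGAA (a STAT motif), TGTGGT (a RUNX motif) and TTGCNNAA (a C/EBP motif) on either strand.
Spp1, chr5:104434861-104435110, plus strand: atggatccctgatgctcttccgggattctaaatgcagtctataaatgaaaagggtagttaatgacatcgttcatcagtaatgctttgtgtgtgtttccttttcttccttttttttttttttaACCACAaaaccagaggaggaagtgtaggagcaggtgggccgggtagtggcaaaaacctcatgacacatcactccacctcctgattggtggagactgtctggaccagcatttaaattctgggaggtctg
Chil1, chr1:134181906-134182155, plus strand: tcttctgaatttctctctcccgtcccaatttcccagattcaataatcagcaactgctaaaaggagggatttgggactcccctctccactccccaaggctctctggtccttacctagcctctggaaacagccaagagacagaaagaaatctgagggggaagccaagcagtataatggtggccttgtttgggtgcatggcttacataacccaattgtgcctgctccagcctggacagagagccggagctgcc
Lrg1, chr17:56121947-56122196, minus strand: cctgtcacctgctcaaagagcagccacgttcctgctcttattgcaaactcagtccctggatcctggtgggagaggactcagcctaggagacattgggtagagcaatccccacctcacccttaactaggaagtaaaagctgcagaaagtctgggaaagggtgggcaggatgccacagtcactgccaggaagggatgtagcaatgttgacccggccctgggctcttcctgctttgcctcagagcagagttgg
Lcn2, chr2:32387740-32387989, minus strand: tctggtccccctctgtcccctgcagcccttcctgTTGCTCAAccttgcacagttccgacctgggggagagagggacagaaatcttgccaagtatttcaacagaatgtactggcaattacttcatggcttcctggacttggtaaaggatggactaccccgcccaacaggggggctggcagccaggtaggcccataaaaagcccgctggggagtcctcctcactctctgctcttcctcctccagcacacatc
Csn2, chr5:87699426-87699675, minus strand: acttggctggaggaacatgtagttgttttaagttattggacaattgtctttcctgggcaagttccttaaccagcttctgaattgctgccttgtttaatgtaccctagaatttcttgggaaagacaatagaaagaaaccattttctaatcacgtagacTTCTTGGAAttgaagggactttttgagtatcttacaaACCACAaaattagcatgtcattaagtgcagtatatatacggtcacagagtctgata
Of 32851 such windows in the table, 7.02% held the STAT letters, 14.0% the RUNX letters and 9.56% the C/EBP letters. The Spp1 window held 1 RUNX match, at bases 128 to 123 before the start, and the Csn2 window held 1 RUNX and 1 STAT match. The Lcn2 window held 1 C/EBP match, as did that of Ltf (not shown), and the Chil1 and Lrg1 windows held none of the 3. The window of Wap, also searched, held none. The table gave windows for these 7 genes and no entry for Hp. Spp1 had 2 entries, of which the first was used. RefSeq and GENCODE starts can differ: the Lrg1 and Ltf windows overlap the GENCODE coordinates given above, and the Lcn2 window lies within its GENCODE gene. A match is a description of letters, not of binding.

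Spp1 carried nearly all of the signal that ranked the cells. The 5 genes took 1.54% to 10.2% of the UMIs of a selected cell, with a median of 2.53%, against a median of 0.0886% and a highest value of 1.53% in the other 1025 cells. Spp1 gave 6376 of the 6853 UMIs of the 5 genes (93.0%), and its lowest part in any selected cell was 61.2%. The selected cells held 17 to 342 Spp1 UMIs each, with a median of 95, and together 46.1% of the Spp1 UMIs of all called lesion cells. Spp1 stood at 30286 CPM (UMIs of the gene scaled to the same total in every group) in the summed selected cells, at 2099 CPM in the summed other cells and at 4069 CPM in free RNA, taken from barcodes of 1 to 50 UMIs that hold no cell. Of the other cells, 68.6% had a Spp1 UMI (median 2). Their summed level was below that of free RNA, but it pools cells of different Spp1 levels. The cells at ranks 61 to 100 stood at 11145 CPM, above free RNA, and the highest count in an unselected cell was 112 Spp1 UMIs. In unselected cells with few Spp1 UMIs, a UMI cannot be told apart from free RNA. In 7 lesion cells without a UMI of Epcam, Krt8 or Krt18 and with at least 5 stromal or vessel UMIs, a limit set after seeing the data, 1 had a Spp1 UMI, at a median depth of 1403 UMIs against 2875.

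The share fell without a gap through the selected cells and past the last of them. The cell at rank 60 had 1.54% and the cell at rank 61 had 1.53%, and 18 of the 60 cells were at 5% or more while 17 were under 2%. The cell at rank 1 held 283 Spp1, 19 Hp, 13 Lrg1 and 11 Chil1 UMIs of 3192 in all, and the cell at rank 60 held 225 Spp1 and 5 Ltf UMIs of 14983. Some 15 cells had UMIs of 1 of the 5 genes, 22 of 2 genes, 12 of 3 genes, 8 of 4 genes and 3 of all 5.

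**Figure D1:**
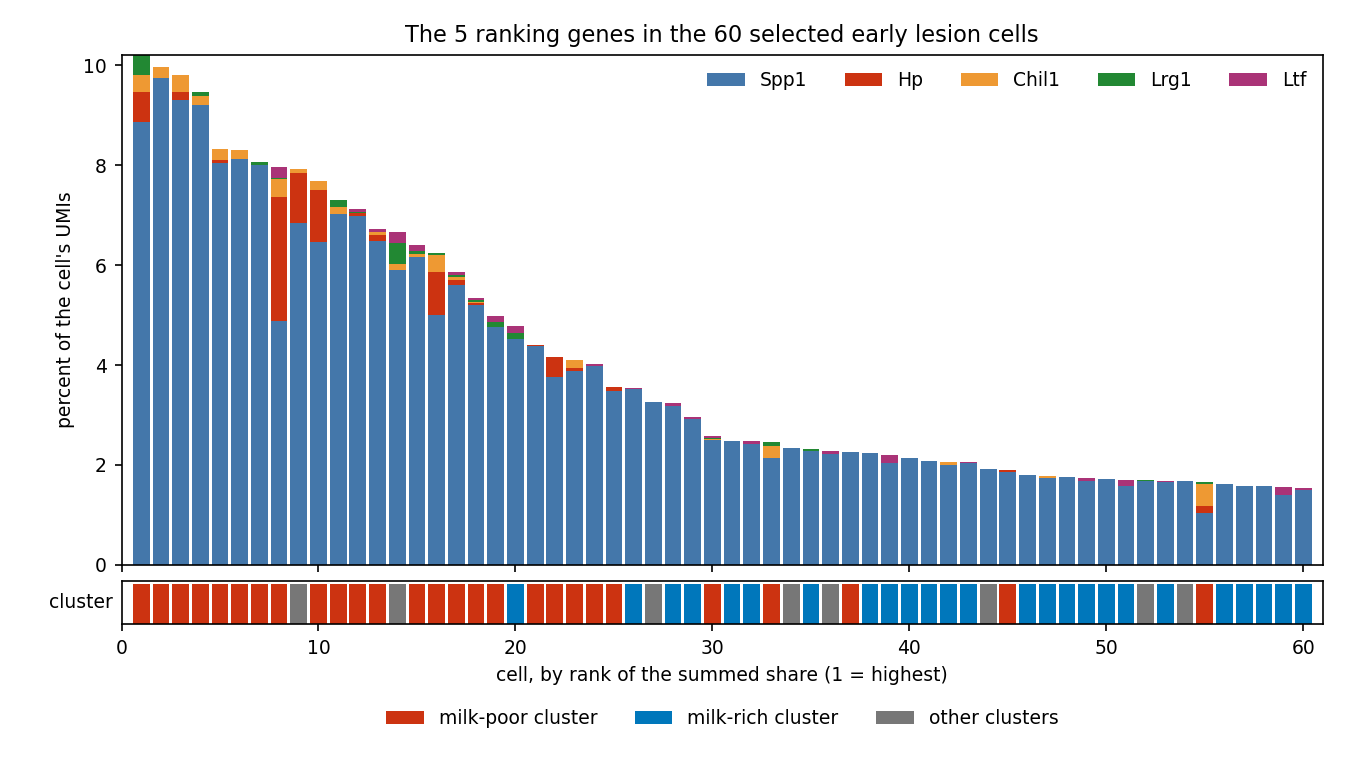
Percent of each cell's UMIs in Spp1, Hp, Chil1, Lrg1 and Ltf (stacked bars, vertical axis) for the 60 selected cells by rank (horizontal axis), with the cluster of each cell in the strip under the bars. Spp1 makes up most of every bar, Hp and Chil1 lie mainly in the first ranks, and 17 of the first 20 cells belong to the milk-poor cluster.

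The other 4 genes were unevenly spread over the selected cells. Hp had 269 UMIs in 17 cells (1278 CPM against 51.4 CPM in the other cells), but 1 cell held 155 of them (57.6%), and without it the level was 558 CPM. Chil1 had 107 UMIs in 22 cells (508 against 17.4 CPM), and its highest cell held 22. Lrg1 had 39 UMIs in 19 cells (185 against 29.2 CPM). Ltf had 62 UMIs in 24 cells (295 against 107 CPM), yet its highest count in any cell, 34 UMIs, was outside the selected cells, where the highest count inside was 13. For Hp, Chil1 and Lrg1 the share of other cells with a UMI was 8.78%, 4.59% and 6.34%, and the free RNA levels were 121, 67.2 and 47.9 CPM, above those of the other cells.

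Each gene was also measured in cells ranked without it. The 5 genes were chosen together with earlier results of these data known, so these values are a description and no independent check. Ranked on the other 4 genes, 59 or 60 of the 60 cells were the same when Hp, Chil1, Lrg1 or Ltf was left out, and the left-out gene was higher in them by log2 4.54 for Hp, 4.13 for Chil1, 2.68 for Lrg1 and 1.29 for Ltf. For Hp, 1 cell held 155 of the 262 UMIs behind that ratio. Without Spp1 only 25 of the 60 cells were the same. The top 60 cells by Hp, Lrg1, Chil1 and Ltf held a median of 5.5 UMIs of those genes, and Spp1 stood at 22893 CPM in them against 2884 CPM in the rest, a log2 ratio of 2.99 (95% interval 2.93 to 3.04). A Spp1 UMI was found in 46 of those 60 cells (76.7%) and in 70.0% of the rest, and the median of the 60 was 14 Spp1 UMIs.

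Clustering the lesion cells on all genes except the 5 divided the selected cells between 2 clusters of 9. One cluster of 65 cells, led by Ccl19, Clic6, Hey1, Pkib, Basp1, Bglap3, Rgs5 and Cst3, held 27 of them (45.0%). Another of 162 cells, led by Lao1, Wap, Fabp3, Glycam1, Olah and Lalba, held 25 (41.7%), and the other 8 lay in 4 more clusters. The median cell of the first cluster gave 6.72% of its UMIs to the list of milk and alveolar genes, and that of the other 25.2%, so they are called milk-poor and milk-rich here, without a cell type name. At a Leiden resolution of 0.5 the 27 cells stayed in 1 cluster of 65 cells, and at 2.0 a cluster of 63 cells held 26 of them. The milk-rich 25 stayed together at 0.5, in a cluster of 413 cells, while at 2.0 the most in 1 cluster was 17.

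Since the 5 genes were left out of the clustering, their levels over all cells of each cluster were not set by it. Spp1 was at 20971 CPM (95% interval 20286 to 21674) in the milk-poor cluster and at 7261 CPM (7061 to 7465) in the milk-rich one. The next were 2798 CPM in a cluster led by Ccl20 and Klf2 and 2714 CPM in one led by Cxcl13 and Acta2, whose intervals overlapped, and the lowest was 324 CPM in a cluster led by Lum and Dcn. In the Ccl20 cluster 1 cell held 342 of 1430 Spp1 UMIs, and in the Cxcl13 cluster 1 cell held 212 of 486. Hp, Chil1 and Lrg1 were highest in the milk-poor cluster of the 9. Hp was at 1553 CPM there, with 155 of 262 UMIs in 1 cell. In the others it was at 15.97 to 184 CPM (the latter with 31 of 33 UMIs in 1 cell). Chil1 was at 682 against 7.05 to 27.9 CPM and Lrg1 at 356 against 3.96 to 60.003 CPM. Ltf was at 581 CPM in the milk-poor cluster and at 212 CPM in the milk-rich one, with 38.8 to 134 CPM elsewhere. Of the 98 Ltf UMIs of the milk-poor cluster, 34 were in 1 unselected cell. Selected cells carried much of the Spp1 level: without them Spp1 was at 2284 CPM in the milk-poor and 4709 CPM in the milk-rich cluster, the reverse order, and the median cell of the whole cluster held 13 and 17 Spp1 UMIs. Also without them, Spp1 was at 2120 CPM in the Ccl20 cluster, 1072 CPM in the Cxcl13 cluster and 2314 CPM in a cluster led by Rrm2 and Rad51ap1.

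**Figure D2:**
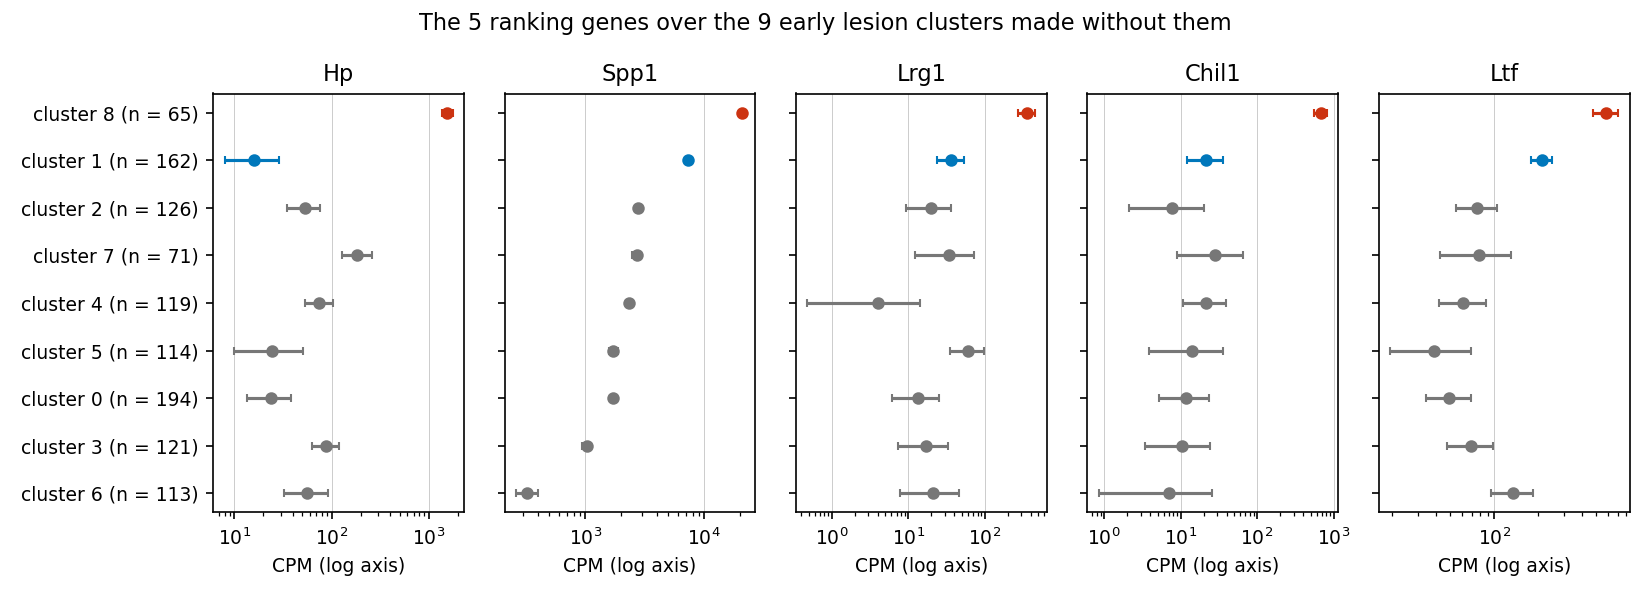
Summed CPM (horizontal axes, log scale) of Hp, Spp1, Lrg1, Chil1 and Ltf in each of the 9 early lesion clusters (vertical axis, with the number of cells), which were made without these genes. Points are sums over all cells of a cluster and bars exact 95% Poisson intervals; cluster 8 is the milk-poor cluster (red) and cluster 1 the milk-rich one (blue), and Spp1 is at 20971 and 7261 CPM in them.

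Among the selected cells, the milk-poor 27 held the top of the ranking and nearly all Hp and Chil1. Their ranks ran from 1 to 55 with a median of 16, and those of the milk-rich 25 from 20 to 60 with a median of 43. Spp1 stood at 51823 CPM (21 to 303 UMIs a cell, median 112) in the milk-poor and at 19981 CPM in the milk-rich cells (median 73 and highest 271 UMIs). Hp had 238 UMIs in 16 of the 27 milk-poor cells and none in the 25 milk-rich ones, at least 143-fold lower there against a floor of 3 counts over the group. Without the cell that held 155 of those UMIs, Hp in the milk-poor cells was 1445 CPM. Chil1 had 99 UMIs in 18 milk-poor cells and 5 in 2 milk-rich ones, and Lrg1 29 in 14 and 5 in 3. Ltf was the exception, at 361 CPM in 9 of 27 cells and 313 CPM in 13 of 25, a log2 ratio of 0.22 (-0.61 to 1.0). The milk-poor cells had a median of 1963 UMIs and the milk-rich cells 3980, so the cells without Hp were the deeper ones.

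Milk genes separated the 2 kinds of selected cells in their kind as well as their amount. The milk and alveolar list took 4.38% to 17.5% of the UMIs of the milk-poor cells and 23.96% to 42.1% of those of the milk-rich cells, so the ranges did not overlap, as the clustering used these genes. Glycam1, a secreted milk mucin, had 15 UMIs in 10 milk-poor cells against 2578 UMIs in all 25 milk-rich cells (236 and 22396 CPM). Wap, whey acidic protein, was at 62.9 and 2458 CPM, and Fabp3, a fatty acid-binding protein, at 47.1 and 1277 CPM. Lpl, the lipoprotein lipase gene, had no UMI in the milk-poor cells and 30 in the milk-rich ones, at least 5.53-fold lower. The caseins Csn2, Csn1s2a and Csn1s1 were at 23476, 15273 and 11502 CPM in the milk-poor cells and at 94360, 109094 and 24533 CPM in the milk-rich cells.

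Other milk genes were as high or higher in the milk-poor cells. Lalba, alpha-lactalbumin, was at 3724 CPM in them, 2467 CPM in the milk-rich cells and 784 CPM in the other 1025 cells. Csn3, kappa-casein, was at 20883, 16827 and 9778 CPM, and Trf, transferrin, at 19013, 11146 and 5338 CPM. Of the named milk proteins, the milk-poor cells thus held less Wap, Glycam1, Csn2, Csn1s2a and Csn1s1 than the milk-rich cells, and not less Lalba, Csn3 or Trf. Of 21 measured milk and alveolar genes, 6 were called higher and 9 lower in the milk-poor cells than in the other 1025 cells, where 4.15% and 6.1% of all genes were called higher and lower. In the milk-rich cells 11 were called higher and none lower, against 1.63% and 6.51% of all genes. A gene was called where the ratio was at least 2-fold, its interval excluded 1 and its level over all called cells was at least 30 CPM.

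**Figure D3:**
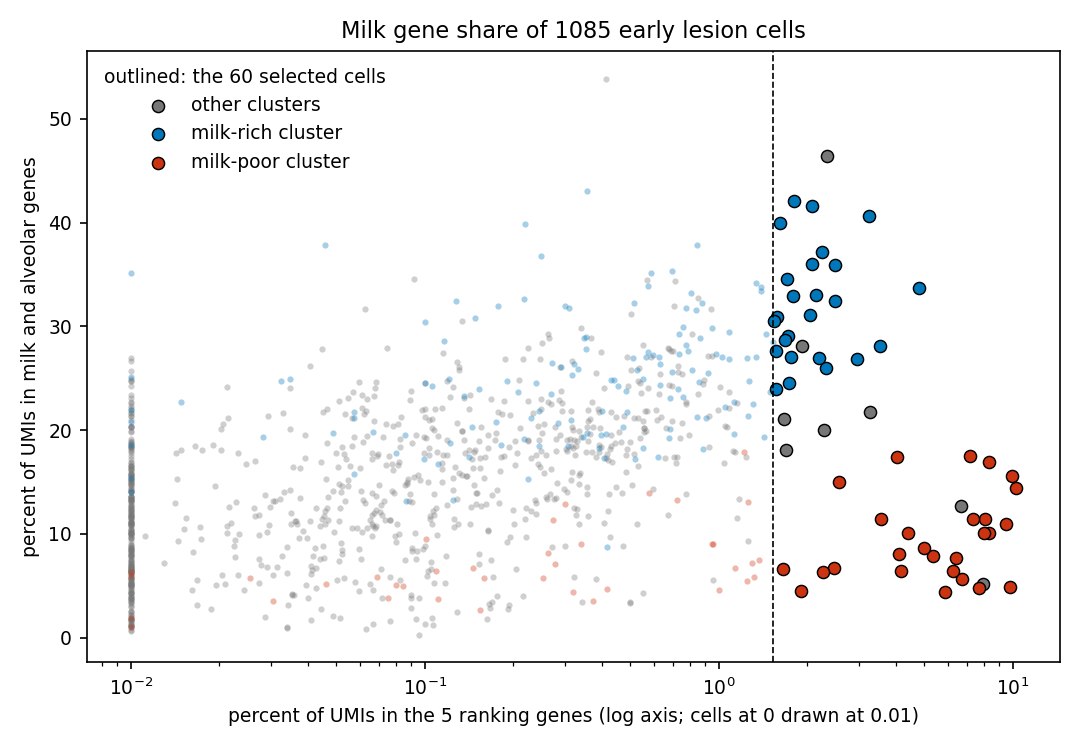
Percent of UMIs in the milk and alveolar genes (vertical axis) against percent in the 5 ranking genes (horizontal axis, log scale) for each of the 1085 early lesion cells. Outlined points are the 60 selected cells and the dashed line is the selection limit; the milk-poor cells (red) lie at 4.38% to 17.5% milk genes and the milk-rich cells (blue) at 23.96% to 42.1%.

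Some involution and early response genes and Lcn2 were higher in the milk-poor cells than in the other lesion cells, and fewer genes of the involution and early response lists were called higher in the milk-rich ones. Lcn2, lipocalin 2, which binds bacterial siderophores, had UMIs in all 27 milk-poor cells (3 to 39 each, median 9) and was at 5563 CPM there, 799 CPM in the milk-rich cells and 693 CPM in the other cells. Mfge8, which bridges dying cells to phagocytes, was at 4023, 990 and 695 CPM, and Igfbp5, an insulin-like growth factor binding protein known from involution, at 1398, 330 and 268 CPM. Cst3, cystatin C, an inhibitor of cysteine proteases, was at 3033, 130 and 119 CPM, but 1 of the 27 cells held 52 of its 193 UMIs, and without it the level was 2278 CPM. Cst3 also leads the milk-poor cluster and so was used to define it. Of the 14 measured involution genes, 7 were called higher and 1 lower in the milk-poor cells, and 1 higher and 2 lower in the milk-rich cells, beside 4.15% and 6.1% of all genes in the first and 1.63% and 6.51% in the second, which also stand beside the list counts that follow. Of the acute phase and secreted defence list, Lcn2 and Apoe (597 against 173 CPM) were the 2 of 8 called higher in the milk-poor cells, and Pigr, the receptor that carries IgA into milk, was the 1 called lower, with a list median of -0.10.

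The AP-1 subunit genes Fos and Jun were at 3583 and 1210 CPM in the milk-poor cells, 617 and 261 CPM in the milk-rich cells and 885 and 368 CPM in the other cells. Of the immediate early and stress list, 9 of 18 measured genes were called higher in the milk-poor cells and none of 17 in the milk-rich cells, where 1 was lower. Of the gp130 and STAT3 pathway list, which covers the signal of interleukin-6 family cytokines, 3 of 7 were called higher in the milk-poor cells, namely Cebpb, a C/EBP transcription factor (1336 against 670 CPM), Junb (770 against 338 CPM), which is also counted in the list before, and Stat3 (10 UMIs, log2 1.63, 0.48 to 2.48). None of the 6 measured in the milk-rich cells was called. Antigen presentation genes went the other way: B2m, the light chain of MHC class I (1367 against 2873 CPM), H2-K1 (471 against 1250 CPM) and the immunoproteasome subunits Psmb8 and Psmb9 were the 4 of 12 called lower in the milk-poor cells, and H2-Q7 was the 1 called lower in the milk-rich cells. The immediate early and stress list took a median of 1.09% of the UMIs of the milk-poor selected cells, 0.513% of the milk-rich ones and 0.549% of the other cells, and 1.21% in the cluster led by Ccl20, Klf2 and Fosb, which held 2 selected cells.

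Several of these genes were also high in the 38 cells of the milk-poor cluster that were not selected, a comparison added after seeing the data. Fos was at 3817 CPM in them against 3583 CPM in the 27 selected cells, Jun at 2113 against 1210 CPM, and Lcn2 at 3036 against 5563 CPM. Cebpb (1199 against 1336 CPM), Lalba (4521 against 3724 CPM) and Cd14 (514 against 471 CPM) were not called between the 38 and the 27. B2m was low in both, at 1285 against 1367 CPM, and none of 9 measured MHC list genes was called. The medians of the 38 cells were 1.58% for the immediate early list and 0.675% for the involution list, against 1.09% and 0.783% in the selected cells. Hp (228 against 3740 CPM), Chil1 (152 against 1556 CPM) and Spp1 (2284 against 51823 CPM) went with the selection, which used them, while Lrg1 (295 against 456 CPM) and Ltf (714 against 361 CPM) were not called. Of the 75 Ltf UMIs of the 38 cells, 1 cell held 34. Beyond the ranking genes, 1.42% of measured genes were higher and 3.57% lower in the 27 cells than in the 38. Cst3 (log2 1.26, 0.93 to 1.59), Igfbp5 (1.05, 0.58 to 1.52) and Trf (1.10, 0.98 to 1.23) were higher, 1 of 15 involution genes was called higher, and 1 of 20 immediate early genes was higher and 6 lower.

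Luminal progenitor genes did not move one way. In the milk-poor cells 2 of 10 measured were called higher (Cd14 and Wnt5b) and 2 lower (Lmo4 and Rspo1), and in the milk-rich cells none were higher and 1 lower. Cd14, a lipopolysaccharide co-receptor, was at 471 CPM in the milk-poor, 165 CPM in the milk-rich and 162 CPM in the other cells. Elf5, the alveolar transcription factor, was at 974, 930 and 884 CPM, and Lmo4 at 62.9, 313 and 345 CPM. Rspo1, a secreted enhancer of Wnt signalling, had no UMI in the 27 milk-poor cells and 7 in the milk-rich ones (60.8 CPM), against 219 CPM in the other cells. Kit and Aldh1a3, which mark luminal progenitors, had a UMI in 1 and 0 of the 60 selected cells and in 2.63% and 0.976% of the other cells, so neither could be compared at this depth. Tspan8, a tetraspanin of the same list, had 13 UMIs in the milk-poor cells and none in the milk-rich cells, under the 30 CPM limit over all cells.

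**Figure D4:**
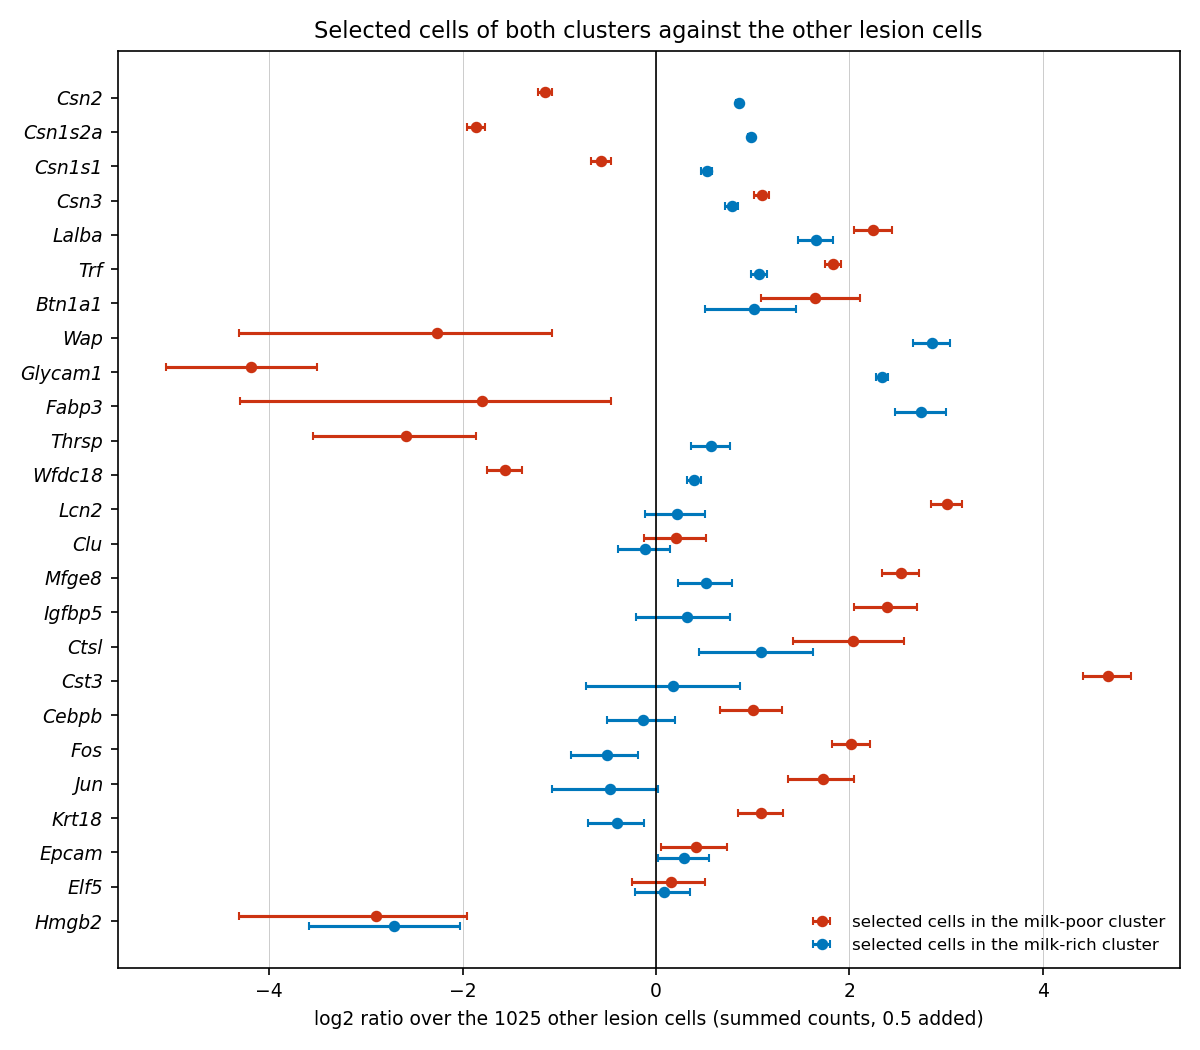
Log2 ratio of summed counts (horizontal axis, with 0.5 counts added) of the 27 milk-poor (red) and 25 milk-rich (blue) selected cells over the 1025 other lesion cells for 25 genes chosen after their values were seen; bars are exact 95% intervals. Caseins Csn2 and Csn1s2a, Wap, Glycam1 and Fabp3 lie on opposite sides of 0 in the 2 kinds, Lalba, Csn3 and Trf lie above 0 in both, and Hmgb2 lies below 0 in both.

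Summed together, the 60 cells mix both kinds. Against the other 1025 cells, 52 of 3363 measured genes (1.55%) were higher and 224 (6.66%) lower, beside the 5 ranking genes, with a median log2 ratio over all genes of -0.18. With totals that leave out milk and ranking genes the split was 90 higher and 149 lower with a median of -0.01, and with the median ratio set to 1 it was 106 and 139. The highest measured genes were Cck, the cholecystokinin hormone gene (54 UMIs in 24 cells, 257 against 28.1 CPM, log2 3.20), Cst3 (log2 3.08) and Dkkl1 (51 UMIs in 29 cells, log2 2.32). Cck and Dkkl1 were also higher in the selected milk-rich cells than in the other 137 cells of their cluster, with log2 ratios of 1.30 (0.38 to 2.13) and 1.16 (0.39 to 1.87), where 1.43% of all genes were called higher. In the same comparison Wap (2458 against 985 CPM), Glycam1 (22396 against 9873 CPM) and Fabp3 (1277 against 497 CPM) were higher as well, and Csn2 (94360 against 76739 CPM) was not called. Within the milk-rich cluster the selected cells were thus also richer in these milk RNAs.

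Some RNAs of the selected cells were scarce elsewhere and stood under the 30 CPM limit over the library, so they are named only because they were high in the selected cells. Hey1, a transcription factor downstream of Notch, had 16 UMIs in 10 selected cells and 11 UMIs in 0.878% of the other 1025 cells. Clic6, a chloride channel family gene, had 33 UMIs in 19 selected cells and 35 in the other cells, and 32 of the 33 were in the milk-poor 27. Pkib, an inhibitor of protein kinase A, had 11 UMIs in 6 cells against 9, with 10 of the 11 in the milk-poor 27. Fcgbp had 14 UMIs, of which 85.7% were in 1 cell, and 1 of the 14 was in the milk-poor cells. Hey1, Clic6 and Pkib also lead the milk-poor cluster and so were used to define it. They were not particular to its selected cells. Of the UMIs outside the selected cells, its unselected cells held 9 of 11 for Hey1, 23 of 35 for Clic6 and 5 of 9 for Pkib. For Fcgbp it was 3 of 18.

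Over the lists, the milk genes of the 60 cells came out 10 higher and none lower of 21, with a median log2 ratio of 0.81. Beside this and the counts that follow, 1.55% of all genes were called higher and 6.66% lower. The involution list had 4 higher (among them Ctsl, the lysosomal protease cathepsin L, log2 1.49) and 1 lower of 14, with Bax, a pro-apoptotic gene, as the lower one. The acute phase and secreted defence list had 2 of 8 higher, Lcn2 (log2 1.74) and Pigr (log2 1.04), and these 2 came from different cells: Lcn2 was high in the milk-poor and Pigr in the milk-rich cells. No gene of the NF-kB and cytokine list (5 measured), the gp130 and STAT3 list (6), the luminal progenitor list (10), the interferon list (5), the hypoxia and glycolysis list (12) or the endoplasmic reticulum folding list (13) was called higher in the 60 cells together. In lists this short, none called higher is near the share over all genes. Nfkbia and Sod2 of the NF-kB list had log2 ratios of -0.07 and 0.11. Of the receptors of osteopontin and of the Chil1 protein, 1 gene each was measured, Itgb1 (log2 -0.74) and Tmem219 (log2 0.18), and neither was called. The luminal epithelial list had none of 13 called, and Fosb was the 1 higher of 18 immediate early genes. In the top 60 cells ranked without Spp1 it was 8 of 18, where 2.77% of all genes were higher, and the involution list went from 4 to 6 of 14.

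**Figure D5:**
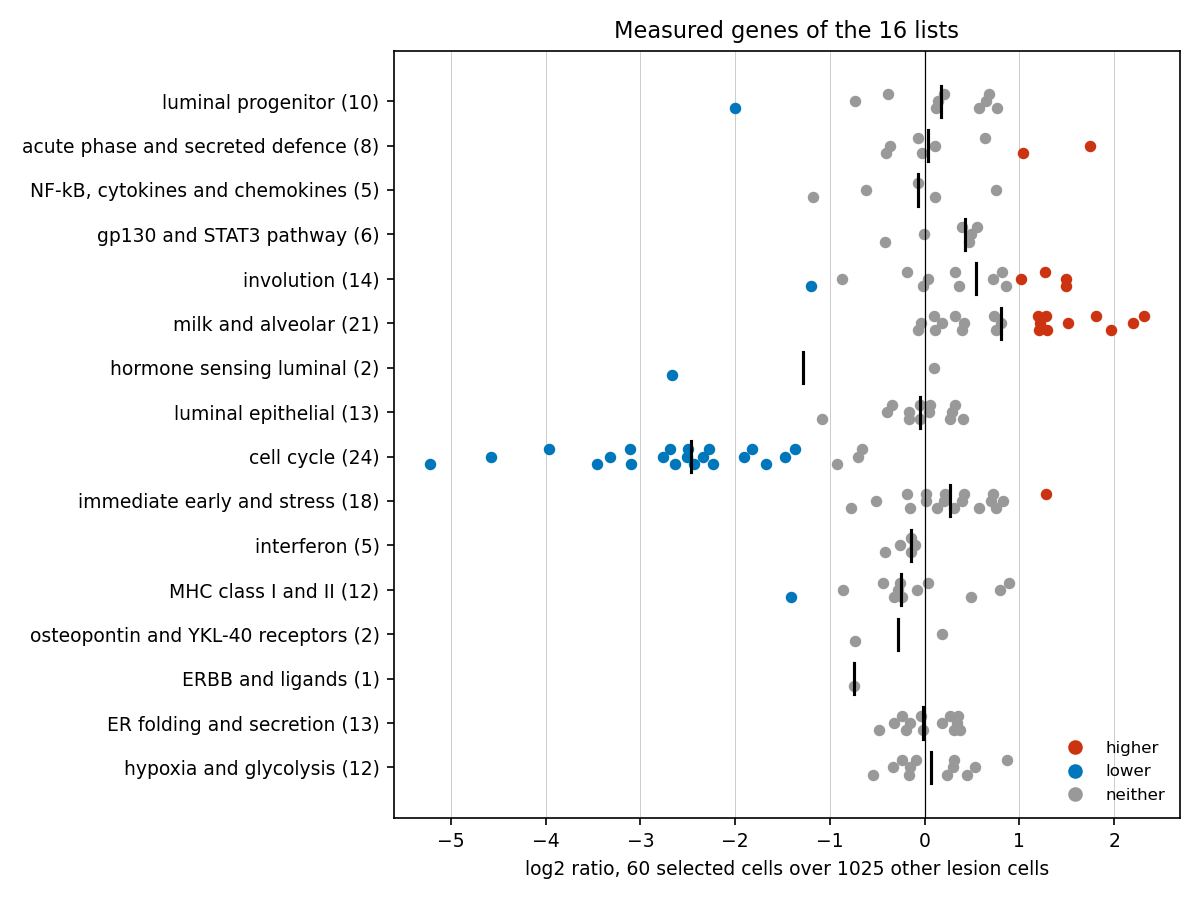
Log2 ratio of summed counts of the 60 selected over the 1025 other lesion cells (horizontal axis) for each measured gene of 16 gene lists (vertical axis, with the number measured). Points are genes colored by call and the black bars list medians; the cell cycle list lies at a median of -2.47, the milk and alveolar list at 0.81, and the median over all genes was -0.18.

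Cell cycle genes were low in both kinds of selected cells. Of 24 measured, 21 were called lower and none higher in the 60 cells, with a median log2 ratio of -2.47. Over all genes 6.66% were called lower. Top2a, topoisomerase II alpha, and Ccnb2, a mitotic cyclin, had no UMI in the selected cells against 56.5 and 88.6 CPM in the others, at least 3.97-fold and 6.21-fold lower against a floor of 3 counts over the group. Hmgb2, a chromatin protein, was at 110 CPM in the milk-poor cells, 130 CPM in the milk-rich cells and 878 CPM in the other cells. In the milk-poor and milk-rich cells taken alone, 13 of 26 and 16 of 25 cell cycle genes were called lower. Beside them stand 6.1% and 6.51% of all genes. The list took a median of 0.0846% of the UMIs of the milk-poor, 0.0809% of the milk-rich and 0.263% of the other cells. Unselected cells of the same clusters were low as well, with medians of 0.103% (milk-poor) and 0.143% (milk-rich). The cycling cells of the lesion formed clusters of their own. Among cells with at most 2 UMIs of the list, 4 of its genes were measured and none was called lower. That limit removes the cycling cells by construction, so the count decides nothing.

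Malat1, a nuclear long noncoding RNA, was at 90.3 CPM in the selected and 848 CPM in the other cells, but few cells held it in either: 9 of the 60 and 18.0% of the others had a UMI. The mitochondrial share was low in both, with medians of 0.117% and 0.119%. Ribosomal protein genes took a median of 20.9% of the UMIs of the selected cells and 24.6% of the others. The selected cells had a median of 2694 UMIs and 906 genes, the others 2875 UMIs and 1084 genes, and at 1000 UMIs each (56 and 985 cells deep enough) 484.5 and 525 genes. At that fixed depth Hp had a UMI in 26.8% of the selected and 4.06% of the other cells (28.3% and 8.78% unthinned), Chil1 in 28.6% and 1.83% (36.7% and 4.59% unthinned), and Lcn2 in 71.4% and 42.5% (86.7% and 67.9% unthinned). A doublet caller marked 5 of the 1085 cells, none of them selected.

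Several of the ranking genes are also known from myeloid cells and neutrophil granules, so markers of those cells were counted. All 7 general leukocyte markers, Ptprc (CD45) among them, were at 0 in the 60 cells, as were the T and NK, B and mast cell lists. Of 14 neutrophil markers 12 were at 0, with S100a9, Ngp, Camp and Ly6g among them, and Lcn2 gave 488 of the list's 495 UMIs. Of 12 macrophage markers 10 were at 0, with C1qa, Csf1r and Adgre1 among them. The summed macrophage list was 0 to 5 UMIs a cell, at 257 against 174 CPM in the other cells, and Cd14 gave 53 of its 54 UMIs. These markers were scarce in the other cells too. Csf1r and Adgre1 had no UMI there, C1qa had 7, and the general leukocyte list had 41. Luminal markers (Epcam, Krt8, Krt18 and 6 more) had UMIs in 60 of 60 selected cells, at 6104 CPM against 6039 CPM in the other cells, and in all 27 milk-poor cells, at 6615 CPM. The basal list was at 214 against 426 CPM, and the fibroblast list had 2 UMIs. The 38 unselected cells of the milk-poor cluster were more mixed, with 52 pericyte UMIs in 2 cells and 16 fibroblast UMIs in 5. Erbb2, which cannot be split into mouse and transgene RNA in these files, had 3 UMIs in the selected cells and 25 in the others, too few to compare.

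Spp1-high cells were not found in the primary tumor library at this depth. None of its 425 cells reached the share of the cell at rank 60, which allows up to 0.706% of cells as 3 cells of 425 (exact 95% upper limit 0.864%), and Spp1 had 9 UMIs in 3 tumor cells (4.94 CPM). Hp and Ltf were at 0.549 and 1.10 CPM. Chil1 was present, with 297 UMIs in 48 tumor cells (163 CPM, free RNA 91.2 CPM), 80 of them in 1 cell, and without that cell the level was 120 CPM. Since no tumor cell passed, the 24 top tumor cells, the same fraction as in the lesion, were described. They held 136 UMIs of the 5 genes, 7 of them Spp1, and 14 of the 24 cells had a single UMI of the 5, so this is largely a choice of Chil1-positive cells. Of 17 milk and alveolar genes measured there 5 were called higher and 1 lower, and of 13 involution genes 4 were higher, where 3.55% of all genes were called higher. One of the 24 cells held 35.3% of their UMIs, and without it, a check added after seeing the data, 4 milk genes were higher and none lower, and 6 involution genes were higher, against 2.82% of all genes.

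In the lungs 2 of 185 early and 6 of 210 late cells reached the lesion's limit (1.08% and 2.86%). All 8 held Spp1 (11 to 49 UMIs) and no UMI of Hp, Lrg1, Chil1 or Ltf, and none had a luminal marker UMI. They had 641 to 2553 UMIs each, where the medians of the 2 lungs were 772 and 811. The lung cells next in rank that owed their place to Hp were rich in alveolar and airway RNA: the late lung cell with 30 Hp UMIs held no Spp1 and 3255 UMIs of the lung epithelial markers. No cell barcode was shared between any 2 of the 4 libraries.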

How the data were processed

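Whole-number UMI counts per gene and barcode were deposited by the authors for 4 libraries, with no normalization and all 737280 barcodes listed. The 10x Chromium 3' v2 kit is per the labels' protocols and the mm10 genome build per the submitters' notes, while the aligner and counter are not given in the sources used here. A lesion cell had at least 911 UMIs (1/10 of the 99th percentile among the top 3000 barcodes), 250 genes and at most 20% mitochondrial UMIs. Counts were summed over cells and scaled to CPM, and ratios had 0.5 counts added. Intervals are exact conditional binomial or Poisson at 95%. With 1 library per group no test was made. Clusters came from scanpy 1.11.5 (2000 variable genes, 30 components, 15 neighbours, Leiden resolution 1) without the 5 ranking genes. Members, gene lists and comparisons were chosen with earlier results of these data known. Named genes were the 15 highest and 15 lowest at 50 CPM or more by the interval bound nearest to 1, up to 6 of each list, Erbb2 and Ptprc; values for the clusters, and Olah, Basp1, Tspan8, Wnt5b and the cluster leaders, were chosen after seeing the data. The counting script was tested on simulated data. The sort was for CD45- HER2+ cells.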

Additional observations from a re-analysis of the deposited data

How the results depend on the processing

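The counts of called genes moved with several choices, and the cause of each shift was not tested unless named. Of 52 higher and 224 lower genes, leaving out milk and ranking genes from the totals gave 90 and 149, setting the median ratio to 1 gave 106 and 139, and the mean of per-cell CPM gave 106 and 391. The top 40 cells gave 91 higher, and ranking without Spp1 gave 93. A minimum of 10 CPM gave 135 higher. A minimum of 100 CPM tests fewer genes and gave 15 and 64, and thinning to 1000 UMIs gave 121 lower. Adding 5 counts gave 84 and 48, which moved the median of all genes to 0.18. Among cells with at most 2 cell cycle UMIs, an alternative added after seeing the data, it was 86 and 148.

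Of 10 milk genes higher and 0 lower, ranking without Spp1 left 6 higher and 3 lower, and Wap and Glycam1 turned to log2 ratios of -0.57 and -1.15 there. Irf1 turned to 1.17. With at most 2 cell cycle UMIs 1 milk gene was lower, and Hmgb2 turned to 0.18. Cell cycle genes lower, 21 in the values above, were 7 after thinning, 9 at 100 CPM, where 9 were measured, 14 when ranked without Spp1, 13 with 5 counts added and 0 of 4 measured with at most 2 cell cycle UMIs, which is that alternative's own construction. Acute phase genes higher went from 2 to 1 with the mean of per-cell CPM, after thinning, at 100 CPM and in cells without Malat1, and to 4 with at most 2 cell cycle UMIs. Luminal progenitor genes higher went from 0 to 2 with the mean of per-cell CPM or ranking without Spp1, and to 1 in the top 40 cells, at 10 CPM or with at most 2 cell cycle UMIs. NF-kB genes higher went from 0 to 1 in the first 2 of these settings, in the top 40 cells, with at most 2 cell cycle UMIs and without Malat1. The gp130 and STAT3 genes higher went from 0 to 1 with the mean of per-cell CPM, the top 40 cells and ranking without Spp1, and to 2 with at most 2 cell cycle UMIs. With 1 library per group no replicate could be left out, and no paired analysis was possible because each group has 1 sample. Genes under 30 CPM, Erbb2 and Kit among them, were too thin to compare.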
